A study of Mus musculus with 6 samples.

Results

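Dusp1, Dusp4, Dusp5, Dusp6, Spry1, Spry2, Spry4, Spred1, Spred2 and Spred3 are 10 genes whose proteins turn down the extracellular signal-regulated kinase (ERK) pathway, and they were taken by name, as a readout of that pathway, from the 24421 genes of an RNA-seq count table. All 10 were listed in the table and had at least 29 reads in every library. The table holds 6 mouse libraries, 1 per condition. Cont and cKO blood endothelial cells (BECs) were collected from the skin of E15.5 embryos, with Dot1l 2f/2f in both genotypes and Tie2-Cre carried by the cKO embryos alone. Tie2-Cre acts in the endothelium and in blood cells derived from it. Each of these libraries came from RNA pooled from 2 to 3 embryos, after cells that bound antibodies against CD45, F4/80 or Lyve1 were removed. A figure legend of the study also lists CD31 as a positive marker for the isolation, a step that its methods do not describe. The other 4 libraries came from cell lines. Yolk sac BECs (CRL-2581) and dermal lymphatic endothelial cells (LECs, C57-6064L) were transduced with a lentivirus that carried dCas9-VP64, a transcriptional activator, and guides to the Dot1l promoter (OE-BECs and OE-LECs), or with empty lentivirus (Cont BECs and Cont LECs), and EGFP-positive cells were sorted. Dot1l encodes the methyltransferase of lysine 79 on histone H3. With 1 library per condition, no difference could be tested against the spread between replicates. Each comparison describes a pair of libraries, and the 95% intervals given below cover counting error only.

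Growth factor receptors of the endothelium, among them the receptors for VEGF and FGF, signal through Ras, Raf and MEK to the kinases ERK1 and ERK2. Active ERK induces the genes of its own inhibitors, so the RNA of these genes is widely read as a record of recent ERK activity. The inhibitors act at different levels of the cascade. Sprouty proteins (Spry) and the related Spred proteins act upstream, near the receptor, Ras and Raf, and the dual-specificity phosphatases (Dusp) remove the activating phosphates from the kinases themselves. The libraries measure RNA, and neither phosphorylated ERK nor any protein was measured.

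Total counts ranged from 8863349 reads (skin Cont BECs) to 31032461 reads (OE-LECs). Dot1l had 1972 and 4208 reads in the BEC lines (control, then OE), 2.78-fold higher with OE, and 2490 and 6720 in the LEC lines, 2.30-fold higher. It had 762 and 944 reads in the skin pair (log2 ratio -0.07, from -0.21 to 0.07), and reads summed over the gene do not show whether the floxed part was lost. By RT-qPCR, done without replicates, the study reports that the cKO was verified. The skin libraries held RNA of other cells. The summed level of 10 macrophage markers was 4001 counts per 1000000 reads (CPM) in the skin control and 6275 in the library labelled cKO. Mrc1 alone made up 2538 and 3911 CPM of these sums. The 10 endothelial markers summed to 4525 and 3084 CPM. In the 4 cultured libraries the macrophage markers summed to 34.3 to 94.7 CPM, with Adgre1, Cd163, C1qa, C1qb and C1qc at 0 reads, and the endothelial markers summed to 5137 to 8074 CPM. Of 6 lymphatic markers, Prox1 and Pdpn were at 0 reads in both LEC libraries and Reln and Mmrn1 at 0 or 1. Lyve1 and Flt4 were present there and also in the BEC lines. Lyve1 was higher in Cont LECs, with 1998 CPM against 604 in cultured Cont BECs, and Flt4 was lower, with 107 against 144. Lyve1 alone of the 6 was higher in Cont LECs, so the markers as a set did not mark the LEC line as lymphatic. In bulk RNA of this kind, fewer cells of a type and less RNA per cell cannot be told apart.

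Dusp6 (chr10:99263231-99267489, RefSeq, GRCm38.p6), a cytoplasmic phosphatase specific for ERK1 and ERK2, was the most abundant of the 10 genes per kilobase of exon in every library. Its level in CPM per kilobase was 76.5 and 71.2 in the skin pair (control, then labelled cKO), 101 and 47.4 in the BEC lines (control, then OE) and 53.2 and 42.8 in the LEC lines. In OE-BECs and Cont LECs its interval overlapped that of Spry4, the next gene in order (44.2 and 50.7 CPM per kilobase), so the first place was not separated there. The order also depends on the exon lengths used. In CPM, Spred1 was above Dusp6 in the skin pair (274 and 263 against 240 and 223). Spry4 was above it in OE-BECs (210 against 148), Cont LECs (241 against 167) and OE-LECs (160 against 134). Dusp1 (chr17:26505591-26508472), an early-induced nuclear phosphatase that acts on p38 and JNK as well as ERK, kept to the narrowest range of the 10. It lay between 75.8 CPM in the library labelled cKO and 114 CPM in OE-LECs, a 1.51-fold range.

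Dusp4 (chr8:34807610-34819894) and Dusp5 (chr19:53529145-53541809) encode inducible nuclear phosphatases, and Dusp5 is specific for ERK. In the same order, Dusp4 had 12.4 and 10.6 CPM in the skin pair, 24.5 and 71.6 in the BEC lines and 51.1 and 66.3 in the LEC lines. Dusp5 had 9.70 and 17.5 CPM in the skin pair, 41.2 and 57.3 in the BEC lines and 16.6 and 26.3 in the LEC lines. Both genes were thus higher in each cultured library than in skin Cont BECs, and both were highest in OE-BECs.

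The Sprouty genes differed in where they were expressed. Spry1 (chr3:37639947-37644599) had 51.4 and 41.2 CPM in the skin pair, but 8.65 and 2.08 in the BEC lines and 2.57 and 1.29 in the LEC lines. This 39.9-fold range was the widest of the 10 genes. Per kilobase, Spry1 was the lowest of the 10 in every cultured library, although in cultured Cont BECs its interval overlapped that of Spry2. Spry2 (chr14:105891947-105896819), an inhibitor of receptor signalling to Ras and Raf, was also higher in skin, at 24.4 and 19.9 CPM against 7.01 to 12.2 CPM in the cell lines. Spry4 had the opposite order, with 89.7 and 44.8 CPM in the skin pair, 272 and 210 in the BEC lines and 241 and 160 in the LEC lines.

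Spred1 (chr2:117121071-117182279) and Spred2 (chr11:19924442-20024026) encode membrane-associated inhibitors of Ras, and Spred1 brings the Ras-inactivating protein neurofibromin to the membrane. Spred1 had 274 and 263 CPM in the skin pair and 105 to 130 CPM in the cell lines. Spred2 stayed between 29.6 CPM in skin Cont BECs and 52.2 CPM in OE-BECs. Spred3 (chr7:29157783-29170070), the third member of that family, was the lowest of the 10 per kilobase in both skin libraries, with 3.95 and 12.4 CPM, and had 77.4 to 89.1 CPM in the cell lines. On counts scaled over all 6 libraries, the skin Cont BECs were 24.8-fold lower than the cultured Cont BECs for Spred3, 3.32-fold lower for Spry4 and 4.66-fold lower for Dusp5, and 5.42-fold higher for Spry1, 3.17-fold higher for Spry2 and 2.25-fold higher for Spred1. Skin and culture differ in the source of the cells, their age and their handling, which cannot be told apart. The RNA of the 10 genes together summed to 739 to 1014 CPM, a narrower range than that of any single member. Dusp6 made up 31.1% of it in cultured Cont BECs and 17.6% in OE-BECs.

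**Figure D1:**
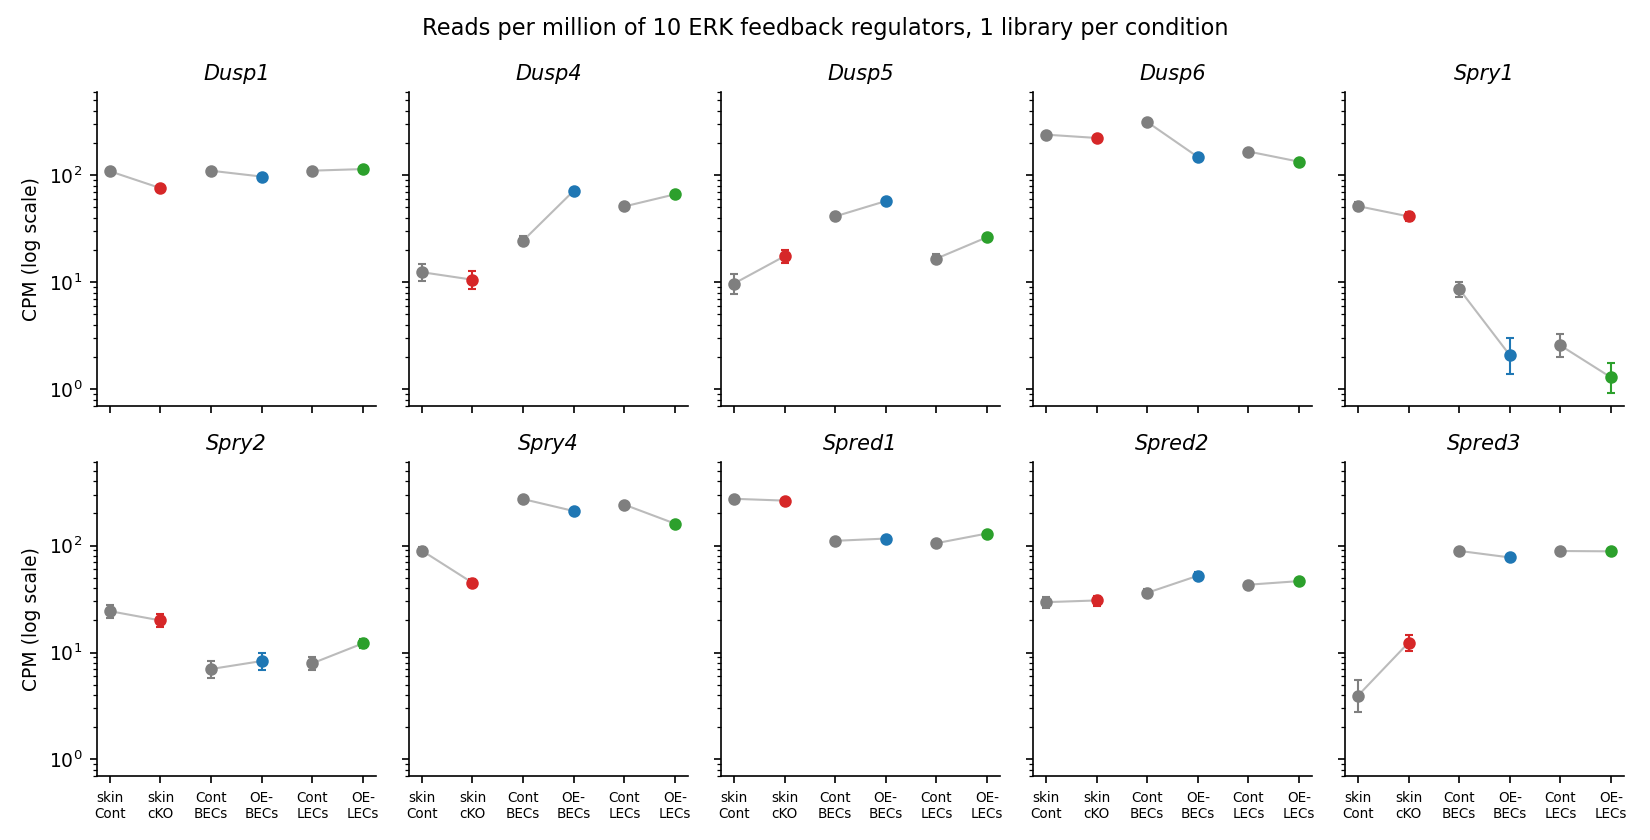
Level of each of the 10 genes in counts per 1000000 reads (CPM, log axis) in the 6 libraries, with exact 95% Poisson intervals and a line joining each control (grey) to its changed library (coloured). Spry1 spans 1.29 to 51.4 CPM and Spred3 3.95 to 89.1 CPM in opposite directions between skin and culture, and Dusp1 stays within 75.8 to 114 CPM.

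The sequence upstream of the start site is shown for 4 members, Dusp1 and Dusp5 because they hold sites of factors that act in immediate early transcription, and Dusp6 and Spry1 because both were lower in OE-BECs and in OE-LECs. RefSeq promoters (GRCm38.p6, 250 bases before the start to 50 after it) were used for 8 of the 10 genes, and 5 motifs were searched on both strands. Dusp4 had no promoter entry. Spry4, which was also lower in OE-BECs and in OE-LECs, was not searched. The motifs were the cyclic AMP response element (CRE, TGACGTCA), its shorter core TGACG, the AP-1 site TGACTCA, the ETS site CCGGAA and the CArG box of serum response factor. Shorter or other forms of the ETS site were not searched. Each CRE also contains the core TGACG on both strands. The 250 bases before the start follow, 5′ to 3′ on the strand of the gene, with every match in capitals.
Dusp1 (chr17:26508473-26508722, minus strand): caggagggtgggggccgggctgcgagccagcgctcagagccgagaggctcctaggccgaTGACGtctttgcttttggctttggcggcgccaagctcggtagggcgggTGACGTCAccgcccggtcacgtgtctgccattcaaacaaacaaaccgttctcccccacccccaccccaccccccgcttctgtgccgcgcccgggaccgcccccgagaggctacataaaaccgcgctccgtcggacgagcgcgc
Dusp5 (chr19:53528895-53529144, plus strand): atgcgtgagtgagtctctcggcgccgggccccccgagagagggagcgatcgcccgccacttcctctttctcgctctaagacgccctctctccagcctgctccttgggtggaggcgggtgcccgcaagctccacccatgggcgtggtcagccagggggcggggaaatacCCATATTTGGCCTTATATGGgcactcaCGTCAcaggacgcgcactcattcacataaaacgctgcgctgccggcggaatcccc
Dusp6 (chr10:99262981-99263230, plus strand): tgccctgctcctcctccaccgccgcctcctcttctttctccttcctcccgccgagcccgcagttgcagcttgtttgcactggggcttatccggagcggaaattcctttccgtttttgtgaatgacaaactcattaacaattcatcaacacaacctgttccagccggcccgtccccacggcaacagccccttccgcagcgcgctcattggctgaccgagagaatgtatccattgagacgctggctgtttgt
Spry1 (chr3:37639697-37639946, plus strand): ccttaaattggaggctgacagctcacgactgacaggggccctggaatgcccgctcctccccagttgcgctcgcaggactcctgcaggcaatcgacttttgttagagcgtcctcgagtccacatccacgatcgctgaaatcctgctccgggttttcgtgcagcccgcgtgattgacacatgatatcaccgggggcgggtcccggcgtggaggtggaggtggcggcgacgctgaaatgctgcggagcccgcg

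The Dusp1 promoter held 1 CRE, at positions -143 to -136 from the start, and 3 matches to the CRE core, of which 2 are the ends of that CRE. A CRE was found in 1.79% of 32851 promoters of the same length and the CRE core in 20.8%. The Dusp5 promoter held 2 CArG boxes side by side, at -82 to -73 and -72 to -63, and 1 CRE core, where 1.63% of all promoters held a CArG box. Spry2 held the ETS site CCGGAA at 34 to 39 bases into the transcribed part (14.9% of all promoters), and Spred2 held 1 CRE core. None of the 8 held the AP-1 site, which 5.20% of all promoters held, and none of the 5 motifs was found in Dusp6, Spry1, Spred1 or Spred3. For Spred3 the window (chr7:29168648-29168897) lies inside the gene as positioned above, so it was not upstream of the outermost start. These are matches of letters in a short window, and they say nothing of binding. The median GC content of the 8 windows was 63.5%, and that of all promoters was 52.7%.

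In the comparison of the library labelled cKO with skin Cont BECs, most members were somewhat lower, and Spry4 and Spred3 were the furthest from their controls. Spry4 (chr18:38586247-38601347), a Sprouty protein that restrains growth factor signalling to Raf, had 795 reads in the control library and 497 in the one labelled cKO. On counts normalized by the median of ratios, this was 2.08-fold lower, a log2 ratio of -1.06 with an interval from -1.22 to -0.89. Spred3 went the other way, with 35 and 137 reads, 3.01-fold higher (log2 ratio 1.59, from 1.05 to 2.17).

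Among the phosphatases of that pair, Dusp1 had 966 and 840 reads and was 1.49-fold lower (log2 ratio -0.58, from -0.71 to -0.44). Dusp5 had 86 and 194 reads and was 1.74-fold higher (0.80, from 0.42 to 1.18). Dusp6, with 2124 and 2473 reads, differed by a log2 ratio of -0.16 (from -0.24 to -0.07). The 4 Dusp members therefore did not share a direction. Dusp4, with 110 and 117 reads, and Spred2, with 262 and 340, had intervals that included 0. Spry1 (456 and 457 reads, log2 ratio -0.37), Spry2 (216 and 221 reads, -0.34) and Spred1 (2425 and 2916 reads, -0.11) were lower, with intervals below 0.

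Genes were called by the rule of the study's methods, a normalized count of at least 5 in the higher library and more than 3 times the lower, and by a milder rule of more than 2-fold where the larger normalized count was at least 20. By the first rule 1 of 10 members was up, Spred3, and 0 were down, where 5.17% of all genes tested were up and 2.41% down. By the milder rule 1 was up, Spred3, and 1 was down, Spry4, where 6.67% and 3.25% of genes were. With 10 genes, 1 call is a share near these. Spred3 lies at the edge of the 3-fold rule and no longer passed it when 1 was added to each normalized count. The intervals of 6 members lay below 0 and those of 2 above it, where 28.3% and 25.0% of genes with a larger normalized count of at least 20 did; this share depends on the reads of a gene, and the members had up to 2916. The median log2 ratio of the 10 was -0.22, and that of all genes was 0.01.

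The make-up of the skin pair moved in the same comparison. Of the 10 endothelial markers, 9 were lower beyond their intervals in the library labelled cKO (median log2 ratio -0.60), and of the 10 macrophage markers 9 were higher (0.74). Keratinocyte markers summed to 243 CPM in the control and 409 in the library labelled cKO, fibroblast markers to 2515 and 1852, pericyte markers to 724 and 563, and skeletal muscle markers to 125 and 106. The lymphatic markers summed to 2788 and 3246 CPM, although Lyve1-binding cells had been removed. Lyve1 (9105 and 19959 reads) and Pdpn (167 and 457) were higher in the library labelled cKO. Prox1 (1304 and 883), Reln (4125 and 2942), Flt4 (2607 and 2628) and Mmrn1 (7399 and 9109) were lower on normalized counts, beyond their intervals. The median log2 ratio of these 6 was -0.22, and Lyve1 alone went from 1027 to 1801 CPM. Set against the summed reads of the endothelial markers in place of the median of ratios, a scaling added after the data were examined that moves all genes by 0.61 on the log2 scale, the members' median was 0.38. Since every gene moves by the same amount, this shows only which ratios are smaller than the shift. Dusp6 then stood at 0.45, Spred1 at 0.50 and Spry1 at 0.23, and Spry4 at -0.45. Of the 15 immediate early and stress genes, 12 were lower and 3 higher beyond their intervals, where 28.3% and 25.0% of genes were. Among the 3 were the heat shock gene Hspa1a, with 22 and 271 reads, and its near-identical copy Hspa1b, with 29 and 319. How reads were split between these copies is uncertain. The part of these shifts in the members' differences was not tested.

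**Figure D2:**
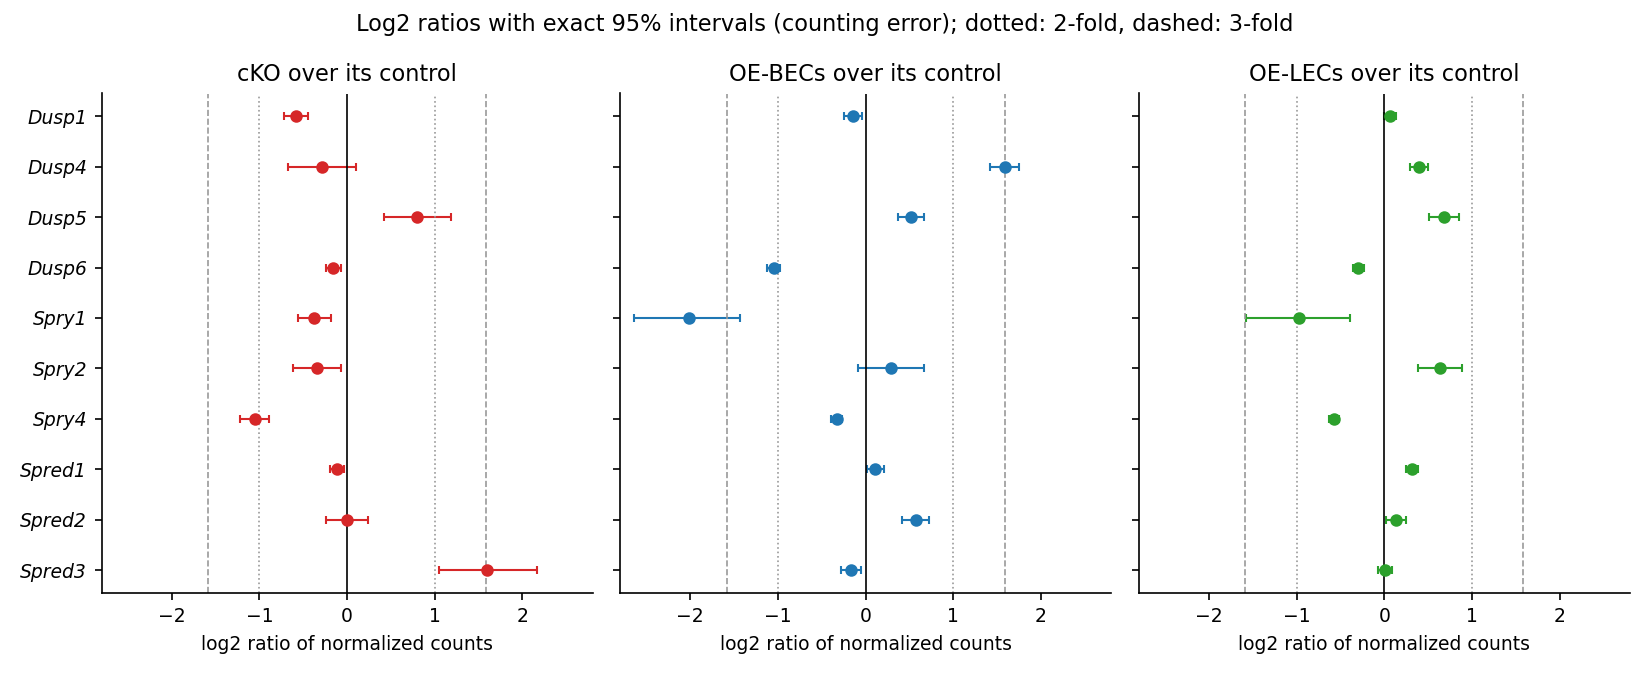
Log2 ratio of normalized counts, changed library over control, of the 10 genes in the 3 comparisons, with exact 95% intervals for counting error and lines at 2-fold (dotted) and 3-fold (dashed). Spry4 and Spred3 are furthest from 0 in the skin pair, Spry1, Dusp4 and Dusp6 in the BEC lines, and no gene reaches 2-fold in the LEC lines.

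In OE-BECs the members differed from their control in both directions. Spry1, Dusp6 and Spry4 were lower than in cultured Cont BECs, and Dusp4, Spred2 and Dusp5 were higher. Spry1 had 153 reads in the control line and 29 after activation of Dot1l, 4.05-fold lower (log2 ratio -2.02, from -2.64 to -1.44). Spry1 is also among the ERK genes that the study displays, so its difference is not independent of that choice. Dusp6 had 5572 and 2067 reads, 2.07-fold lower with a narrow interval (-1.05, from -1.12 to -0.97). Spry4 had 4807 and 2930 reads, 1.26-fold lower (-0.33, from -0.40 to -0.26).

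On the higher side in OE-BECs, Dusp4 had 433 and 997 reads, 3.002-fold higher (log2 ratio 1.59, from 1.42 to 1.75). Its phosphatase relative Dusp5 had 729 and 799 reads, 1.43-fold higher (0.52, from 0.37 to 0.66). Spred2 had 639 and 727 reads, 1.48-fold higher (0.57, from 0.41 to 0.72). The 4 Dusp members again did not share a direction. The other 4 were closer to their controls: Dusp1 with 1949 and 1354 reads (log2 ratio -0.14, from -0.24 to -0.04), Spry2 with 124 and 116 (0.29, with an interval that included 0), Spred1 with 1958 and 1619 (0.11) and Spred3 with 1576 and 1079 (-0.16).

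For OE-BECs the study's rule asks for a normalized count of at least 3. By it 1 of 10 members was up, Dusp4, and 1 was down, Spry1, where 8.02% of genes tested were up and 5.27% down. Dusp4 sits on the limit and was under 3-fold with TMM factors, with total counts and with 1 added to each count. By the 2-fold rule 1 was up, Dusp4, and 2 were down, Spry1 and Dusp6, where 4.33% and 5.59% of genes were. The intervals of 4 members lay above 0 and those of 5 below it, where 29.1% and 32.3% of genes did. The median of the members was -0.02 and that of all genes -0.00, so the group as a whole had no direction in this pair. Rn45s, the ribosomal RNA precursor, took 5.91% of the control reads and 10.9% of those in OE-BECs, and counts scaled without it left each member's ratio inside its interval. In the same pair the 10 endothelial markers summed to 8074 CPM in the control and 5137 in OE-BECs, with 9 of 10 lower beyond their intervals and Cldn5 3.31-fold, Tek 2.93-fold and Tie1 2.30-fold lower. Their part in the members' differences was not tested.

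In OE-LECs the differences were smaller, and no member passed either rule in either direction. By the 3-fold rule 2.77% of genes were up and 2.09% down, and by the 2-fold rule 2.26% were up and 1.56% down. Spry1 came closest, with 67 reads in the control and 40 in the OE line, 1.97-fold lower (log2 ratio -0.98, from -1.58 to -0.39). Spry4 had 6298 and 4974 reads, 1.49-fold lower (-0.57, from -0.63 to -0.52). Dusp6 had 4353 and 4157 reads, 1.23-fold lower (-0.30, from -0.36 to -0.24). The 3 members that were lower were the same 3 that were furthest below 0 in OE-BECs.

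The members higher in OE-LECs were led by Dusp5, with 434 and 817 reads, 1.60-fold higher (log2 ratio 0.68, from 0.51 to 0.85). Spry2 had 207 and 378 reads, 1.56-fold higher (0.64, from 0.39 to 0.89). Dusp4 had 1334 and 2058 reads, 1.31-fold higher (0.39, from 0.29 to 0.50). Spred1, with 2748 and 4020 reads (0.32), and Spred2, with 1124 and 1443 (0.13), were also above 0 beyond their intervals, whereas the intervals of Dusp1 (2882 and 3544 reads) and Spred3 (2322 and 2740 reads) included 0. The intervals of 5 members lay above 0 and those of 3 below it, where 26.0% and 23.1% of genes did. The median of the members was 0.10, and that of all genes 0.01. The endothelial markers summed to 7020 CPM in the control and 6104 in OE-LECs, with 9 of 10 lower beyond their intervals. Cldn5, with 484 and 184 CPM, was the 1 marker of these past the 2-fold rule. Their part in the members' differences was not tested.

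The OE comparisons used separate control libraries. Dusp6, Spry1 and Spry4 were below 0 beyond their intervals in both, and Dusp4, Dusp5, Spred1 and Spred2 were above 0 in both. The sizes differed for several genes. The ratio in OE-LECs minus that in OE-BECs was -1.19 for Dusp4 (from -1.38 to -1.001), 0.75 for Dusp6 (from 0.66 to 0.85) and 1.04 for Spry1 (from 0.24 to 1.85). For these 3 genes the difference in the BEC line was thus the larger. Spry4 had a difference of -0.24 (from -0.33 to -0.15) and was the further from its control in the LEC line. For Dusp5 (0.17, from -0.06 to 0.39) and Spry2 (0.35, from -0.09 to 0.79) the interval of the difference included 0, which allows a difference in either direction. No member lay on opposite sides of 0 beyond its interval in both lines. The controls themselves differed, since Cont LECs were 2.06-fold lower than cultured Cont BECs for Dusp6, 3.67-fold lower for Spry1 and 1.92-fold higher for Dusp4, with a log2 ratio of -1.43 for Dusp5. In CPM, Dusp4 in OE-BECs (71.6) lay above both LEC libraries. Dusp6 had 148 CPM in OE-BECs and 167 in Cont LECs. Rn45s took 10.9% of the reads in OE-BECs and 0.05% in Cont LECs, so CPM does not settle the order of Dusp6 between them.

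**Figure D3:**
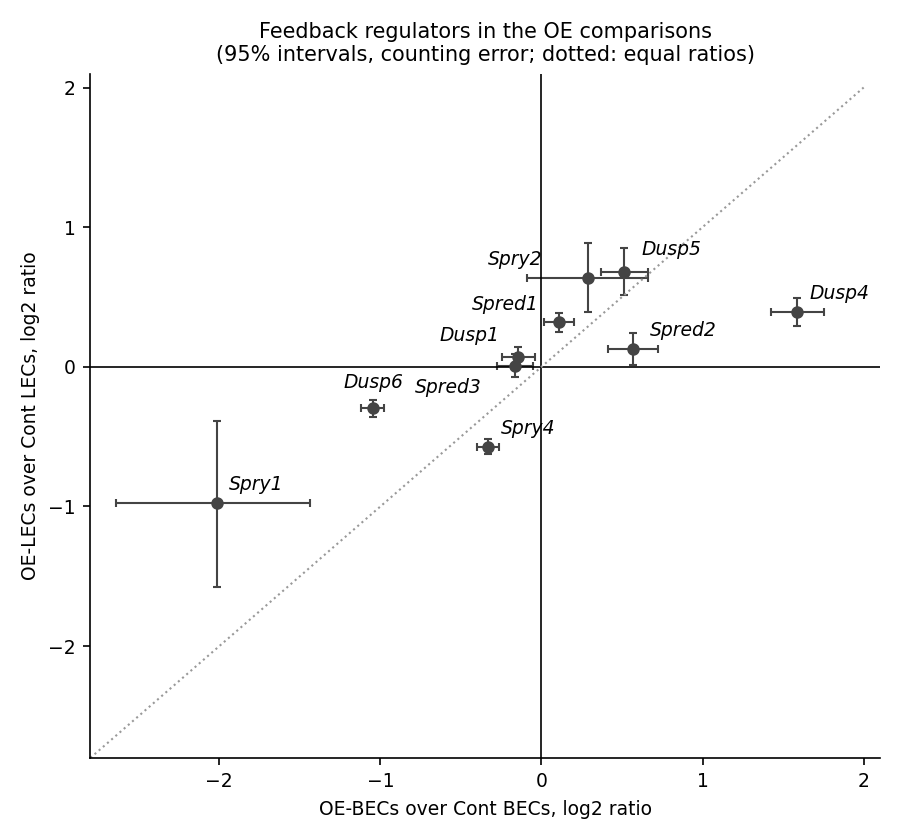
Log2 ratio of each of the 10 genes in OE-BECs (horizontal axis) and OE-LECs (vertical axis) over their controls, with exact 95% intervals for counting error and a dotted line of equal ratios. Spry1, Dusp6 and Spry4 lie below 0 on both axes, and Dusp4 lies furthest to the right, at 1.59 in OE-BECs and 0.39 in OE-LECs.

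A list of 13 other transcripts known to be induced by ERK was mostly higher in OE-BECs. A separate list of 15 immediate early and stress genes, several of which ERK also induces, was not. It had 5 intervals above 0 and 8 below it, where 29.1% and 32.3% of genes did, with a median of -0.19. Both lists were chosen with earlier results of these data known, so neither is an independent readout. Of the 13, 11 were higher and 2 lower beyond their intervals (29.1% and 32.3% of genes were), 8 passed the 2-fold rule upward and 1 downward (4.33% and 5.59% of all genes did), and their median log2 ratio was 1.07 against -0.02 for the feedback regulators. Fosl1, an AP-1 subunit, had 274 reads in the control and 839 with OE, 3.99-fold higher. Ccnd1, which encodes cyclin D1, had 7472 and 21898 reads, 3.82-fold higher, and Phlda1 had 197 and 448, 2.97-fold higher. The ETS factor Etv1, with 120 and 31 reads, was 2.97-fold lower, so this list did not have a single direction either.

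In OE-LECs 9 of the 13 ERK-induced transcripts were higher and 0 lower beyond their intervals (26.0% and 23.1% of genes were), with a median of 0.46. Only Epha4, an ephrin receptor, passed the 2-fold rule, with 182 and 578 reads (2.71-fold). In the skin pair the 12 of these genes with over 3 reads in either library had a median of -0.15, with 1 interval above 0 and 6 below it (25.0% and 28.3% of genes) and 0 genes past 2-fold. In both OE lines Dusp4, Dusp5, Spred1 and Spred2 lay on the same side of 0 as the median of these transcripts, and Dusp6, Spry1 and Spry4 on the other.

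The components of the cascade itself, 20 genes from adaptor proteins to the kinases, had 0 genes past 2-fold in any of the 3 comparisons. Their medians were -0.09 (skin pair), 0.01 (OE-BECs) and -0.01 (OE-LECs). Of all genes, the 2-fold rule called 6.67% up and 3.25% down in the skin pair. These shares were 4.33% and 5.59% for the OE-BEC pair, against 2.26% and 1.56% for the OE-LEC pair. With 20 genes, 0 calls is near these shares, so it does not show that the cascade was unchanged. Of the 11 receptor tyrosine kinases, 2 passed the 2-fold rule upward and 2 downward in OE-BECs, where 4.33% and 5.59% of all genes did. The VEGF receptor Flt1 had 5099 and 888 reads, 4.40-fold lower, and the angiopoietin receptor Tek had 1768 and 463, 2.93-fold lower. Igf1r, the receptor for insulin-like growth factor 1, had 556 and 1057 reads, 2.48-fold higher, and Fgfr3 rested on 8 and 29 reads, 4.73-fold higher. Flt1 was the 1 receptor past 2-fold in OE-LECs, with 2151 and 1161 reads (2.17-fold lower), where 1.56% of all genes were down. None was in the skin pair, where the median was -0.44. There 8 intervals lay below 0 and 1 above it, where 28.3% and 25.0% of genes did. Tek is also 1 of the 10 endothelial markers, whose median in that pair was -0.60. The part of that shift in the ratios of the receptors was not tested.

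Other phosphatases and feedback genes formed a list of 9, in which Spry3 had 0 reads in every library. Dusp2, an inducible nuclear phosphatase, was lower in each comparison, with 323 and 175 reads in the skin pair (2.40-fold), 103 and 37 in the BEC lines (2.13-fold) and 385 and 200 in the LEC lines (2.26-fold). Dusp9 was higher on few reads, with 13 and 35 in the skin pair (2.07-fold) and 27 and 49 in the BEC lines (2.37-fold), but not in the LEC lines, with 209 and 237 reads (log2 ratio -0.05, from -0.32 to 0.23). Il17rd, which encodes the FGF inhibitor Sef, had 47 and 12 reads in the BEC lines and was 3.004-fold lower there. The 15 immediate early and stress genes had medians of -0.59 in the skin pair, -0.19 in OE-BECs and 0.09 in OE-LECs. Fos, chosen for the skin pair after its values were seen, was lower in all 3, with 8711 and 5481 reads in the skin pair (2.07-fold), 947 and 278 in the BEC lines (2.61-fold) and 545 and 254 in the LEC lines (2.52-fold). The growth-inhibitory gene Btg2 was 2.14-fold lower in the skin pair and 3.46-fold lower in OE-BECs, and Zfp36, which encodes an mRNA-destabilizing protein, was 2.27-fold lower in the skin pair.

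**Figure D4:**
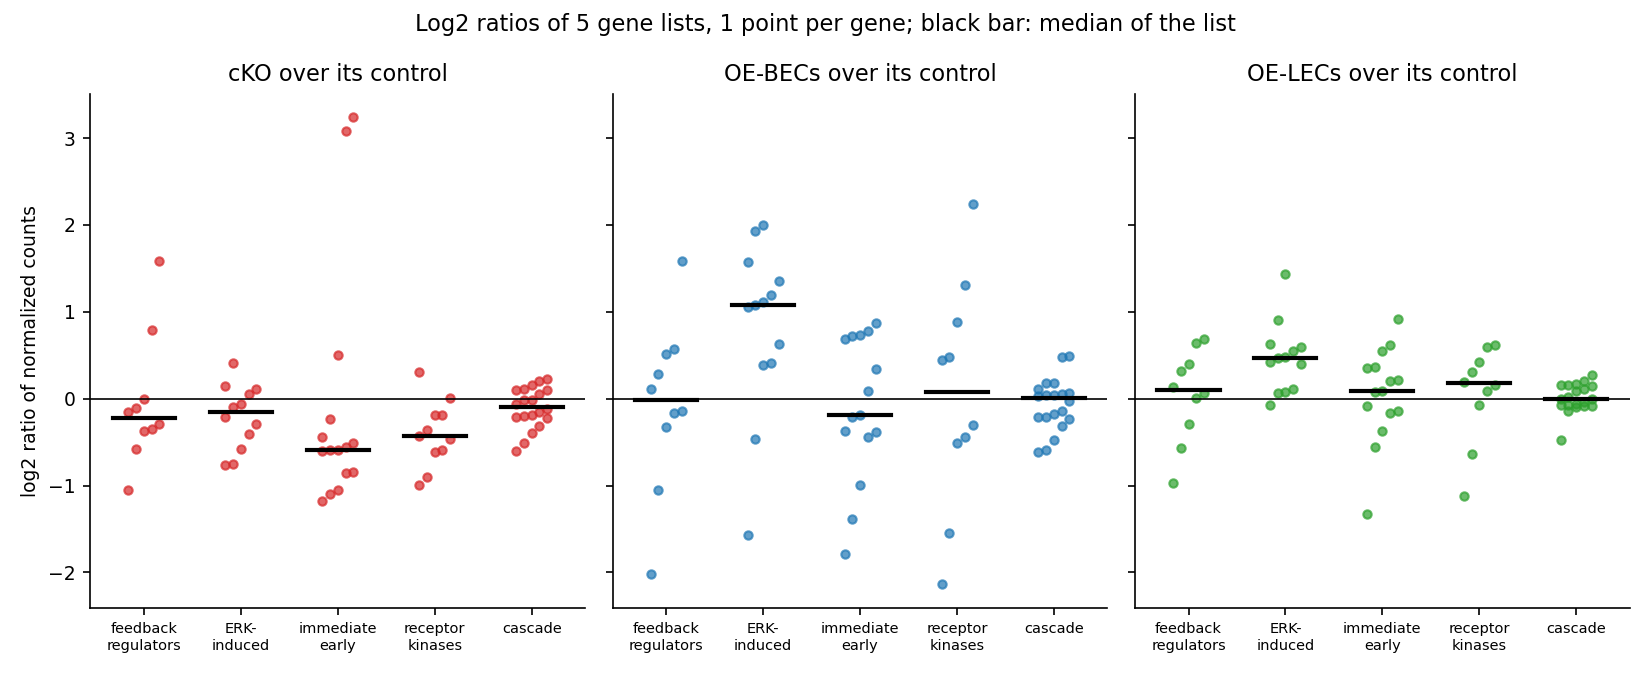
Log2 ratio of normalized counts of the genes of 5 lists in the 3 comparisons, with 1 point per gene with over 3 reads in either library and a black bar at the median of the list (taken with 1 added to each normalized count). In OE-BECs the ERK-induced transcripts have a median of 1.07 and the feedback regulators one of -0.02, with points on both sides of 0. The lists were chosen with earlier results of these data known.

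The genes with the most similar pattern were sought among the 7938 genes with at least 100 reads in every library, by the Euclidean distance between log2 CPM over the 6 libraries after each gene was centred on its own mean. Nearest to Dusp6 were Esyt1, at a distance of 0.13, Fam188b at 0.19 and Ift122 at 0.26. Dusp1 was nearest to Nfatc3 (0.15), Spred2 to Rpn1 (0.15), Spred1 to Bicd2 (0.19), Spry2 to Pik3cb (0.28) and Spry4 to Notch4 (0.44). Dusp5 stood 0.63 from Ubxn1, Dusp4 0.75 from Rrs1, Spry1 0.81 from Rgl1 and Spred3 0.83 from Myof. Spry1, Spred3 and Dusp5 had under 100 reads in at least 1 library and so could not be the neighbour of another member. Each neighbour is the closest picked from 7938 genes over 6 libraries, and distances typical of other genes were not computed. Shared regulation was not tested.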

How the data were processed

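RNA-seq counts of 6 libraries, 1 per condition, were analysed. The authors trimmed adapters with skewer, aligned the reads to mm10 with STAR, counted reads per gene with VERSE and deposited raw counts; the annotation used for counting is not given in the sources used here. The counts were normalized on the 2 libraries of each pair with the median of ratios of DESeq2 1.42.0 (R 4.3.3), without a test, since there are no replicates. Log2 ratios have exact (Clopper-Pearson) 95% intervals and CPM exact Poisson intervals, both for counting error only. Differences between log2 ratios have intervals from the reads of all 4 libraries. Counts up to 3 reads were at the floor. CPM was divided by the exon length of GENCODE M21 to compare genes. Genes are positioned, and promoters taken, from RefSeq (GRCm38.p6). Calculations ran in Python 3.11.15 (pandas 2.3.3, scipy 1.17.1, numpy 2.4.6), and the steps were tested on simulated data.

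The members and lists were chosen with earlier results of these data known. Genes named are the members, Dot1l, Rn45s, the nearest genes by pattern, and from each list up to 4 genes past 2-fold per pair with the largest ratios; markers and genes given as background are named besides. Alternatives were size factors over all 6 libraries, TMM factors of edgeR 4.0.16, total counts with and without Rn45s, other minimums and pseudocounts.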

Additional observations from a re-analysis of the deposited data

How the results depend on the processing

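Of 150 member ratios under 4 other scalings and a pseudocount of 1, 150 stayed inside the interval of the main value and 144 kept their sign; the others were Spred2 in the skin pair and Spred3 in OE-LECs, both near 0. Other minimums bear on the counts of calls alone and left those of the members as they were. The number of members up by over 3-fold went from 1 to 0 in the skin pair with 1 added to each count, and from 1 to 0 in OE-BECs with TMM factors, with total counts and with 1 added. Scaled to the summed endothelial markers, an alternative chosen after seeing the data, genes up made up 91.1% of those called by the 3-fold rule in the skin pair in place of 68.2%, and 95.8% by the 2-fold rule in place of 67.2%. The pair then had 2 members up and 0 down by over 2-fold, a median of 0.38, and log2 ratios of 0.03 (Dusp1), 0.32 (Dusp4), 1.40 (Dusp5), 0.45 (Dusp6), 0.23 (Spry1), 0.26 (Spry2), -0.45 (Spry4), 0.50 (Spred1), 0.61 (Spred2) and 2.20 (Spred3). No paired analysis was possible because each condition has 1 library, and for the same reason no library could be left out. Depth limits Spry1 most, with 29 to 67 reads in 3 of the cultured libraries, and Spred3, with 35 in the skin control.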
